A study of Mus musculus with 16 samples.

Results

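The C1q subunit genes C1qa, C1qb and C1qc were examined in cultured mouse cells on 2-colour expression arrays. Members were the probes whose platform annotation gives one of these 3 symbols alone. There were 3 such probes of 15247, 1 for each gene, and they made up 3 of the 7114 named genes and 3 of the 12761 features tested. The genes were chosen because they were lower in M833 cells in these arrays, so that their differences between the cell types are given as a description, with no test. The submitters' title names mutations of Met, a growth factor receptor gene, in MEFs (mouse embryonic fibroblasts). Total RNA of M833 cells (8 arrays) and of WT cells (8 arrays) was each set against a common reference RNA, with the sample in Cy5 on 4 arrays and in Cy3 on the other 4 of each cell type. The labels name the cell types only as M833 and WT, and give no genotype beyond these names, no strain, treatment, time, clone or embryo number. Met itself had 0 probes under that symbol.

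C1q is the recognition protein of the classical complement pathway. Its A, B and C chains are encoded by C1qa, C1qb and C1qc, and each chain has a collagen-like stalk and a globular C1q domain that binds antibody complexes, dying cells and other targets. C1q joins the proteases C1r and C1s, which start the cleavage of C4 and C2. Macrophages, microglia and related myeloid cells are its main known source in the mouse, and the 3 genes are usually transcribed together there.

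In the RefSeq gene table of assembly GRCm38.p6 the genes lie side by side on chromosome 4, in the order C1qb, C1qc, C1qa, with no other gene of the table between them. RefSeq promoter windows were at hand for C1qb and C1qc, and up to 250 bases before the gene's start in the gene table are shown because the genes are adjacent and moved in the same direction. The windows are chr4:136886201-136886450 for C1qb and chr4:136892937-136893164 for C1qc, both on the minus strand. The C1qc window has 228 bases, since 22 bases of the RefSeq window lie inside the gene's span in the gene table and were left out. Capitals mark matches, on either strand, to GAGGAA, the core of binding sites of the myeloid factor PU.1, or to TGCTGA, which begins binding sites of Maf family factors.
C1qb: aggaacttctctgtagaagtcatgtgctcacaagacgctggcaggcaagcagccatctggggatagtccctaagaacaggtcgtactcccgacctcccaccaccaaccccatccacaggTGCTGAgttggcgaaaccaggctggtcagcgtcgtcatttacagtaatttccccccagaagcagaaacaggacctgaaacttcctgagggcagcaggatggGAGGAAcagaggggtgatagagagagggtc
C1qc: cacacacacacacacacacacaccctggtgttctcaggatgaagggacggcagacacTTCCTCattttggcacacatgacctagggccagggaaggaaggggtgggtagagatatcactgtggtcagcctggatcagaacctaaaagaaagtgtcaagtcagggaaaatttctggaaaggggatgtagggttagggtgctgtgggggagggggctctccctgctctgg
The C1qb window held GAGGAA at 30 to 25 bases before the start and TGCTGA at 131 to 126 bases before it. The C1qc window held GAGGAA on the opposite strand, at 171 to 166 bases before the start. These motifs do not overlap each other, and TATAAA was not in either window. Of 32851 windows of 250 bases in the table, 23.3% held GAGGAA, 16.1% TGCTGA and 12.4% TATAAA, so that matches of this kind are common. GC content was 55.2% for C1qb and 53.9% for C1qc.

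Values are log2 ratios of sample over reference, a direction that the titles make likely but that no label states, and 0 means as much signal as the reference. Nothing in the labels says that arrays came from separate cultures, so that spread and p-values cover differences between arrays, which may be technical. Array medians lay between -0.02 and 0.07. Arrays correlated with r of at least 0.818 over all probes once WT replicate 2 was left out, where 49 log2 ratios exceeded 8, as none did elsewhere. In earlier results of these arrays, replicates 1, 2, 5 and 6 of each cell type stood apart from replicates 3, 4, 7 and 8. With these sets of 4 arrays as a random block the consensus correlation over all features was 0.324, and members are given with and without each set. In RNA of whole cultures, fewer cells of a type and less RNA per cell cannot be told apart.

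C1qb, the B chain gene, showed the largest difference of the members. With the sample in Cy5 it had log2 ratios of -1.25, -1.32, -1.35 and -1.14 on the M833 arrays, against 0.21, 0.15, 0.24 and 0.25 on the WT arrays. With the sample in Cy3 the M833 arrays gave -1.19, -1.33, -1.37 and -1.52, against 0.05, 0.03, 0.08 and 0.11 on the WT arrays. Every M833 array was therefore below the reference and every WT array slightly above it, with 1.17 log2 units between the highest M833 and the lowest WT array. The mean ratio was -1.31 ± 0.12 in M833 and 0.14 ± 0.08 in WT (SD, n = 8 each). C1qb signal was 0.404 times that of the reference in M833 cells and 1.1 times in WT cells, a log2 difference of -1.45 ± 0.04 (SE), or 2.73-fold lower in M833.

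C1qa, the A chain gene, was below the reference on every array of both cell types. Its Cy5 ratios were -1.85, -2.0, -1.96 and -1.90 in M833, against -1.02, -1.05, -0.73 and -0.57 in WT. Its Cy3 ratios were -1.63, -1.38, -1.63 and -1.74 in M833, against -0.27, -0.53, -0.31 and -0.26 in WT. The cell types did not overlap, but the gap of 0.33 between the highest M833 and the lowest WT array was narrower than the gap within either dye orientation, 0.80 in Cy5 and 0.85 in Cy3. The mean was -1.76 ± 0.21 in M833 and -0.59 ± 0.32 in WT (SD, n = 8 each), a log2 difference of -1.17 ± 0.07 (SE), or 2.25-fold lower in M833. In ratio to the reference this was 0.295 in M833 and 0.664 in WT.

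C1qc, the C chain gene, differed least. Its Cy5 ratios were -0.47, -0.46, -0.54 and -0.34 in M833, against 0.29, 0.11, 0.21 and 0.29 in WT. In Cy3 the M833 arrays lay between -0.46 and -0.42 and the WT arrays between -0.11 and 0.14. The cell types did not overlap, with a gap of 0.23, and only the WT arrays in Cy3 stood on both sides of the reference. The mean was -0.45 ± 0.06 in M833 and 0.11 ± 0.16 in WT (SD, n = 8 each), a log2 difference of -0.55 ± 0.05 (SE), or 1.47-fold lower in M833. C1qc signal was 0.734 times the reference in M833 and 1.08 times in WT.

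**Figure D1:**
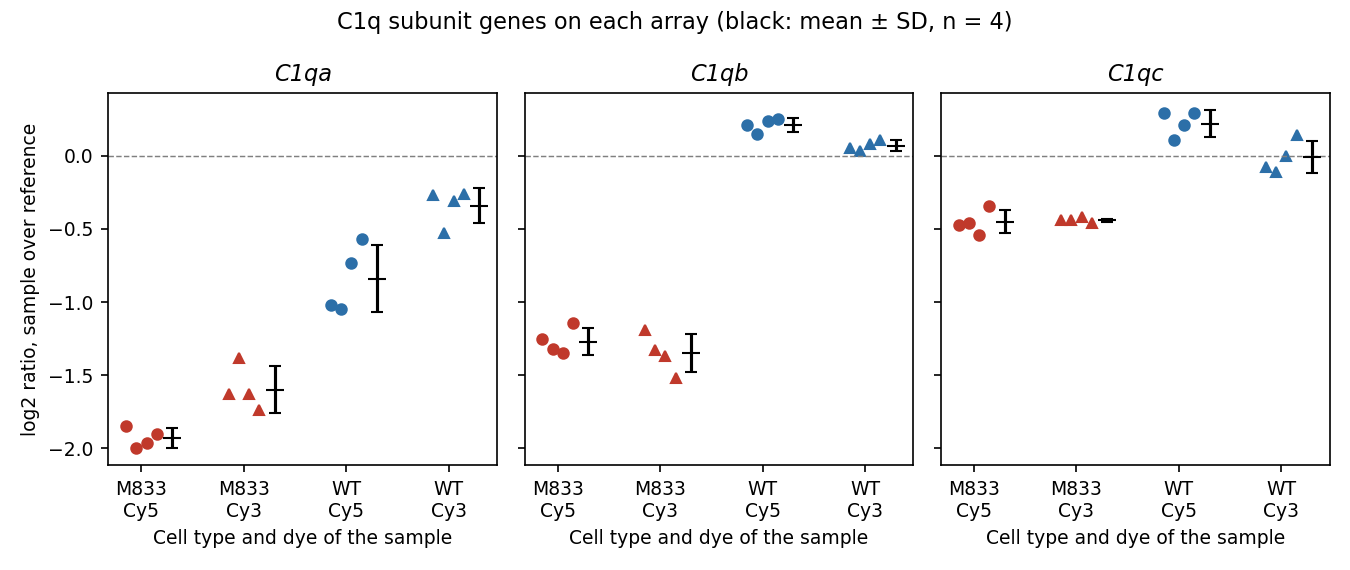
The log2 ratio of sample over reference (vertical axis) is shown for each array, in panels for C1qa, C1qb and C1qc. M833 is in red, WT in blue, with circles for Cy5 and triangles for Cy3. Black marks the mean ± SD of the 4 arrays of each cell type and dye. All M833 arrays lie below all WT arrays of the same gene, and C1qa lies lower in Cy5 than in Cy3 in both cell types.

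All 3 members thus had every M833 array below every WT array, as 2.77% of all features did (354 of 12761), and nothing is read from this share because the members were chosen on this contrast. Among all features 25.9% differed between the cell types in limma at an adjusted p under 0.05, 15.9% lower and 10.0% higher in M833. Centring the arrays by their medians gave 1558 features higher and 1635 lower in M833. The median log2 difference over all features was -0.03. By size of the decrease C1qb ranked 19 among the 12761 features, C1qa 40 and C1qc 239. With the ratio turned to reference over sample the same ranks would be those of increases, and 15.9% of features would be higher and 10.0% lower in M833.

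The M833-minus-WT differences of the subunit genes were not of one size. That of C1qb minus that of C1qc was -0.90 ± 0.05, that of C1qb minus that of C1qa was -0.28 ± 0.07, and that of C1qa minus that of C1qc was -0.62 ± 0.09 (log2 scale, ± SE, 16 arrays). On single arrays C1qb minus C1qc ran from -1.06 to -0.75 in M833 and from -0.08 to 0.14 in WT, with no overlap. C1qb minus C1qa ran from 0.05 to 0.76 in M833 and from 0.32 to 1.22 in WT and did overlap. Each gene had 1 probe, and unequal differences in signal are not shown to be unequal differences in RNA amount.

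Once the means of cell type and dye were removed, each pair of members still correlated positively. Differences between the sets of arrays were left in, and other gene pairs were not compared. The part of these set differences in the correlations was not tested. Pearson's r over the 16 arrays was 0.44 for C1qa and C1qb, 0.40 for C1qa and C1qc and 0.54 for C1qb and C1qc, as a description, since these values share arrays and their normalisation. The residual SD between arrays was 0.085 for C1qb, 0.105 for C1qc and 0.157 for C1qa, against a median of 0.108 over all features. C1qb thus had a smaller spread than most features (percentile 31.5) and C1qa a larger one (percentile 72.9).

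The dye that carried the sample, which had no part in choosing the genes, moved C1qa. Its ratio was lower with the sample in Cy5 than in Cy3 by a log2 difference of -0.41 ± 0.07 (SE; adjusted p = 0.0004 over all features, limma). C1qb was higher in Cy5 by 0.11 ± 0.04 (adjusted p = 0.049), and C1qc had a difference of 0.11 ± 0.05 that did not pass the test (adjusted p = 0.097). Dye differences passed the test for 2 of the 3 members and for 41.3% of all features.

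The M833-minus-WT difference was negative in both dye orientations, as it had to be with every M833 array below every WT array. For C1qb it was -1.48 in Cy5 and -1.42 in Cy3, for C1qa -1.09 and -1.25, and for C1qc -0.68 and -0.43, all on the log2 scale. The difference between orientations, Cy5 minus Cy3, was -0.06 ± 0.09 for C1qb, 0.17 ± 0.15 for C1qa and -0.25 ± 0.09 for C1qc (SE). None passed the interaction test in limma (adjusted p = 1.0 for each), in which 0.0% of the 12761 features were called and 2.83% (361) had an unadjusted p under 0.05. The unadjusted p was 0.012 for C1qc, 0.28 for C1qa and 0.52 for C1qb.

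The members kept their direction in both sets of 4 arrays, as they had to with every M833 array below every WT array. In M833, C1qb averaged -1.27 on replicates 1, 2, 5 and 6 and -1.34 on replicates 3, 4, 7 and 8, against 0.11 and 0.17 on the same sets of WT arrays. C1qa averaged -1.72 and -1.81 on the M833 sets, against -0.71 and -0.47 on the WT sets, the widest gap between sets among the members. C1qc averaged -0.45 and -0.44 on the M833 sets, against 0.05 and 0.16 on the WT sets. For C1qa, leaving out the first WT set gave a difference of -1.29 and leaving out the second gave -1.05, and it was -1.22 and -1.12 without the same sets in M833. For C1qb these values lay between -1.48 and -1.41, and for C1qc between -0.61 and -0.50.

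The genes whose pattern was most like that of the members were found by Pearson's r with the mean of C1qa, C1qb and C1qc over the 16 arrays, after the mean of each dye orientation was removed. They were Gm3636 (r = 0.993), the glutathione synthetase gene Gss (0.984), Serinc3 (0.984), the cathepsin genes Ctsz (0.983) and Ctsb (0.982), Bsg (0.982), which encodes the membrane glycoprotein basigin, Rnf215 (0.980) and Crip2 (0.980). The members themselves gave 0.996 for C1qb, 0.988 for C1qa and 0.966 for C1qc. These values are a description over arrays that share the step between the cell types, and 203 of the 7111 other named genes had r above 0.9. Cathepsins B and Z are lysosomal proteases. Ctsb ran from -0.77 to -0.25 in M833 and from 0.19 to 0.58 in WT, a log2 difference of -0.87 ± 0.04. Ctsz ran from -0.53 to -0.41 in M833 and from 0.04 to 0.40 in WT, a log2 difference of -0.71 ± 0.05. Among the 8, the largest difference was that of Gm3636, -0.94 ± 0.03 (SE, n = 8 per cell type), which is smaller in size than those of C1qa and C1qb and larger than that of C1qc.

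**Figure D2:**
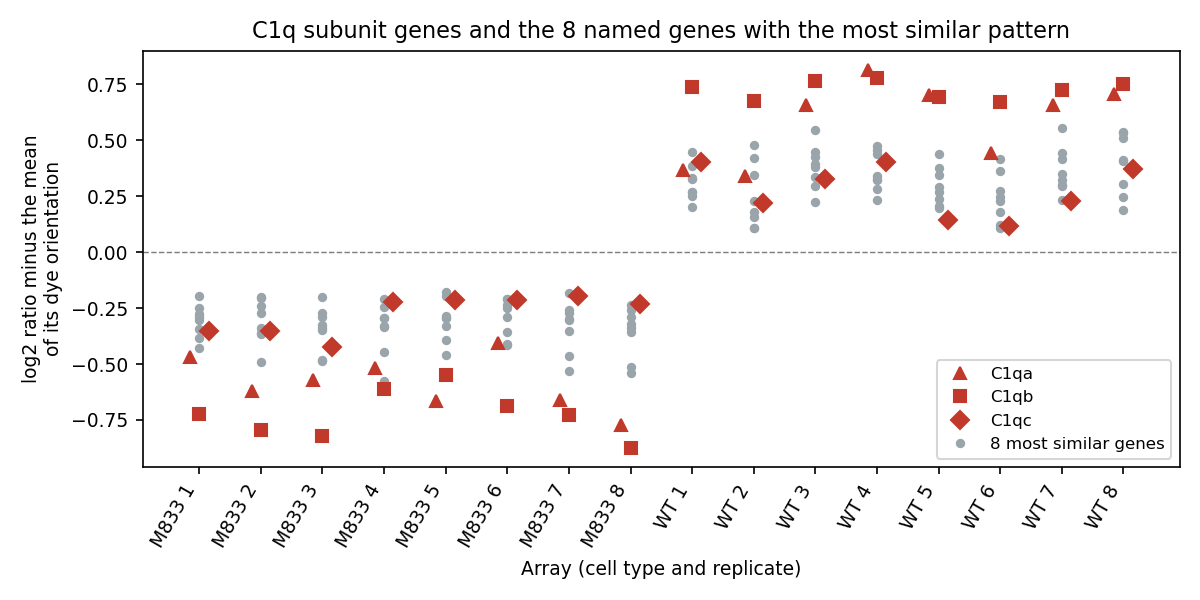
The log2 ratio minus the mean of its dye orientation (vertical axis) is plotted for each array, M833 left and WT right, for C1qa (triangles), C1qb (squares), C1qc (diamonds) and the 8 most similar named genes (grey). All 11 genes lie below 0 on every M833 array and above 0 on every WT array, and C1qa is closer to 0 on WT replicates 1, 2 and 6 than on the other WT arrays.

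The measured genes in a list of macrophage and leukocyte markers were lower in M833, as the members were. Only 5 of the 21 genes of this list besides C1q were measured. All 5 of these fell, by a median of -0.81 on the log2 scale, against -0.03 over all features, of which 15.9% were called lower. They were the lysozyme gene Lyz2 (-1.67 ± 0.14), the actin-bundling gene Lcp1 (-0.86 ± 0.06), the Fc receptor gamma chain gene Fcer1g (-0.81 ± 0.06), the lysosomal membrane gene Laptm5 (-0.68 ± 0.12) and Cybb (-0.61 ± 0.07), a subunit of the phagocyte NADPH oxidase (SE, n = 8 per cell type; adjusted p from 1.8e-07 for Lcp1 to 0.00054 for Laptm5, limma). The mean of the 5 ran from -1.71 to -1.31 over the M833 arrays and from -0.74 to -0.39 over the WT arrays. Defining markers such as Csf1r, Cd68, Adgre1 and Ptprc were not analysed here, and log ratios to a reference do not show which markers are near 0. Earlier results of these arrays already showed this decrease, which is therefore no independent support, and its part in the difference of the C1q genes was not tested. Laptm5 was not called with Cy3 arrays only (-0.62, adjusted p = 0.0935, limma).

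Of markers of other cells that cultures from an embryo could hold, none passed the adjusted test in limma, against 25.9% of all features called in either direction. The markers measured were 3 endothelial, 5 epithelial, 3 red cell and 3 neutrophil and mast cell genes, few for a comparison with that share. Of T and B lymphocyte markers 0 of 8 were measured. The epithelial keratin genes Krt8 (0.20, adjusted p = 0.111, limma) and Krt19 (0.15, adjusted p = 0.107) had an unadjusted p under 0.05. Krt8 passed the adjusted test without M833 replicate 3 (0.27), and after scaling between arrays it was at -0.34 (adjusted p = 0.0243, limma) and Krt19 at -0.10. Fibroblast markers fell in 6 of 9 measured, with a median of -0.21, against 15.9% of all features called lower. The collagen gene Col1a2 ran from -1.45 to -0.32 in M833 and from -0.34 to 0.40 in WT, with a narrow overlap, and fell by 0.87 ± 0.08 (SE; adjusted p = 1.8e-06, limma), a difference similar in size to the median of the macrophage markers. Its part in the difference of the C1q genes was not tested. The collagen genes Col3a1 (-0.38) and Col1a1 (-0.20) also fell, and both lost their calls in either dye orientation alone and without M833 replicates 1, 2, 5 and 6 (-0.25 and -0.15). Neither was called without a dye term, nor was Col1a1 with sets as a random block (adjusted p = 0.0636, limma). Vim, encoding vimentin, averaged 0.85 ± 0.14 in M833 and 1.04 ± 0.18 in WT (SD, n = 8 each), above the reference in both cell types. Its call was lost in 9 settings, among them scaling between arrays (-0.03) and sets as a random block (adjusted p = 0.153, limma). Also among the 6 were Lum (-0.17) and Fn1 (-0.38), which is counted among the C1q receptors and ligands too. Lum lost its call in 11 settings, among them centring (-0.14), either dye orientation alone and sets as a random block. It was also lost without any one of 7 single arrays. Dcn, the gene of the matrix proteoglycan decorin, was below the reference in both cell types.

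The other complement genes did not move as one group. Of 40 genes in this list 8 were measured, of which 2 fell and none rose, against 15.9% of all features lower and 10.0% higher, and the median log2 difference was -0.07. C1ra, the gene of the protease C1r that binds C1q, ran from -1.93 to -1.41 with a median of -1.60 in M833, and from -1.42 to -0.64 with a median of -1.03 in WT. The groups overlapped narrowly, and C1ra fell by 0.58 ± 0.13 (SE; adjusted p = 0.0031, limma). C1s1, the gene of the partner protease C1s, had a difference of -0.27 ± 0.12 that did not pass the test (adjusted p = 0.108), though it did without WT replicate 3 (-0.33, adjusted p = 0.0377), after scaling between arrays (-0.52) and without WT replicates 3, 4, 7 and 8 (-0.44). Without WT replicates 1, 2, 5 and 6 it was at -0.09. Cd55, which encodes the decay-accelerating factor that protects cells from complement, ran from -0.87 to -0.23 in M833 and from -0.10 to 0.56 in WT. The groups did not overlap, and Cd55 fell by 0.73 ± 0.09 (SE; adjusted p = 3.3e-05). The C1 inhibitor gene Serping1, which blocks C1r and C1s, differed by 0.01 ± 0.08 (adjusted p = 0.934). The regulators Cr1l (-0.15), Cfi (0.30) and Clu (0.18) and the lectin pathway gene Mbl2 (0.36, adjusted p = 0.0596) did not pass the test. Mbl2 passed it without WT replicate 4 (0.40), WT replicate 5 (0.41) or M833 replicate 8 (0.46). Leaving out WT replicates 1, 2, 5 and 6 gave -0.27 for C1ra, and leaving out the other 4 WT arrays gave -0.88, both called. Its call was lost with Cy5 arrays only (-0.48) and without M833 replicates 1, 2, 5 and 6 (-0.50), and after scaling between arrays Serping1 was at -0.52 (adjusted p = 0.0106), Cfi at -0.40 and Clu at -0.14.

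Genes of C1q receptors and ligands were lower or did not pass the test. Of 8 measured in a list of 21, 3 fell and none rose, with a median of -0.28, against 15.9% of all features lower. The endocytic receptor gene Lrp1 fell by 0.32 ± 0.05, the matrix proteoglycan gene Bgn by 0.38 ± 0.09 and the fibronectin gene Fn1 by 0.38 ± 0.06 (SE, n = 8 per cell type; adjusted p = 0.00018, 0.006 and 0.00048, limma). C1qbp, which encodes a mainly mitochondrial protein that binds the globular heads of C1q, differed by -0.38 ± 0.16 (adjusted p = 0.0854), and passed the test without WT replicate 5 (-0.45) or M833 replicate 8 (-0.48). Its difference was -0.70 (adjusted p = 0.0311, limma) with Cy5 arrays only and -0.06 with Cy3 arrays only, and -0.61 without M833 replicates 6, 7 and 8. Cd93 (0.17), the calreticulin gene Calr (-0.02), Itgb1 (-0.13) and Dcn (-0.25) did not pass it. Without WT replicates 1, 2, 5 and 6, however, Itgb1 was called at -0.33 and Dcn at -0.62, with array weights at -0.22 and -0.42, and Dcn also after scaling between arrays (-0.76). Without WT replicates 3, 4, 7 and 8 the 2 genes were at 0.06 and 0.12, not called. After scaling between arrays Bgn was at -0.09 and Fn1 at -0.05, neither called, and Bgn was not called without WT replicates 1, 2, 5 and 6 (-0.17) or without M833 replicates 1, 2, 5 and 6 (-0.26). Bgn was also not called in either dye orientation alone or without a dye term, Lrp1 without a dye term and Fn1 with Cy5 arrays only.

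Of 27 genes for proteins that share the globular C1q domain 3 were measured, and all 3 fell, against 15.9% of all features. C1qtnf5, a secreted member of this family, ran from -1.64 to -1.28 in M833 and from -0.97 to 0.00 in WT, without overlap, and fell by 0.86 ± 0.13 (SE; adjusted p = 0.00015, limma). Its difference was -0.57 without WT replicates 1, 2, 5 and 6. The elastic fibre gene Emilin1 fell by 0.37 ± 0.07 and the cerebellin gene Cbln1 by 0.09 ± 0.03 (adjusted p = 0.0013 and 0.0238). Cbln1 lost its call in 10 of the other settings, among them centring (-0.06), and Emilin1 without a dye term, with Cy5 arrays only (-0.35) and without M833 replicates 1, 2, 5 and 6 (-0.28).

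Among regulators of C1q in macrophages 4 of 18 were measured, with 2 down and none up, against 15.9% of all features lower. The myeloid transcription factor gene Irf8 ran from -1.41 to -0.82 in M833 and from -1.22 to -0.40 in WT, with overlap, and fell by 0.43 ± 0.12 (SE; adjusted p = 0.0125, limma). Csf1, the gene of the macrophage growth factor, fell by 0.45 ± 0.14 (adjusted p = 0.0253). The interferon-responsive factor gene Irf1 (-0.17) and Nr1h3, encoding a liver X receptor (0.32), did not pass the test. Irf1 passed it without WT replicate 2 (-0.24) or WT replicates 1, 2, 5 and 6 (-0.27), and Nr1h3 without M833 replicate 8 (0.42). The call of Csf1 was lost without WT replicate 3 (-0.40), M833 replicate 1 (-0.41) or M833 replicate 7 (-0.41), without WT replicates 3, 4, 7 and 8 (-0.13) and after scaling between arrays (-0.21). With the sets of 4 arrays as a random block Irf8 (adjusted p = 0.0920) and Csf1 (adjusted p = 0.113) were not called, and without WT replicates 3, 4, 7 and 8 Irf8 was at -0.23 (adjusted p = 0.176). Irf8 was also not called with Cy5 arrays only (-0.29) or without M833 replicates 6, 7 and 8 (-0.32) or 3, 4, 7 and 8 (-0.30). Csf1 was also not called in either dye orientation alone, without M833 replicates 6, 7 and 8 (-0.43) or without either M833 set (-0.40 and -0.49).

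C1q also tags dying cells for uptake, and of 12 measured efferocytosis genes in a list of 22, 6 fell and 1 rose, against 15.9% of all features lower and 10.0% higher. Among the 6, the bridging ligand genes Gas6 (-0.22) and Pros1 (-0.19) were not called with sets as a random block (adjusted p = 0.217 and 0.0713, limma). Gas6 lost its call in 10 settings in all and Pros1 in 9, with Pros1 at -0.06 without WT replicates 1, 2, 5 and 6. The 2 probes of Pros1 had differences of -0.35 and -0.03. For Gas6, the loss without any one of 10 single arrays (-0.22 to -0.19) counts as 1 of its settings. The integrin gene Itgb5 fell by 0.65 ± 0.05 and Mfge8, whose product bridges dying cells to integrins, by 0.51 ± 0.05 (SE, n = 8 per cell type; adjusted p = 2.2e-07 and 4.2e-06, limma). The transglutaminase gene Tgm2 fell by 0.77 ± 0.17 (adjusted p = 0.0035). The last of the 6 was Lrp1 (-0.32), which is also counted among the C1q receptors and ligands. Stab1, a scavenger receptor gene, was the 1 that rose, by 0.23 ± 0.04 (adjusted p = 0.001). After scaling between arrays Stab1 was at 0.04 and Mfge8 at -0.25 (adjusted p = 0.0524), and Tgm2 was not called in either dye orientation alone or without M833 replicates 1, 2, 5 and 6 (-0.69). Leaving out WT replicates 1, 2, 5 and 6 gave -1.22 for Tgm2, and leaving out the other 4 WT arrays gave -0.32, both called.

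**Figure D3:**
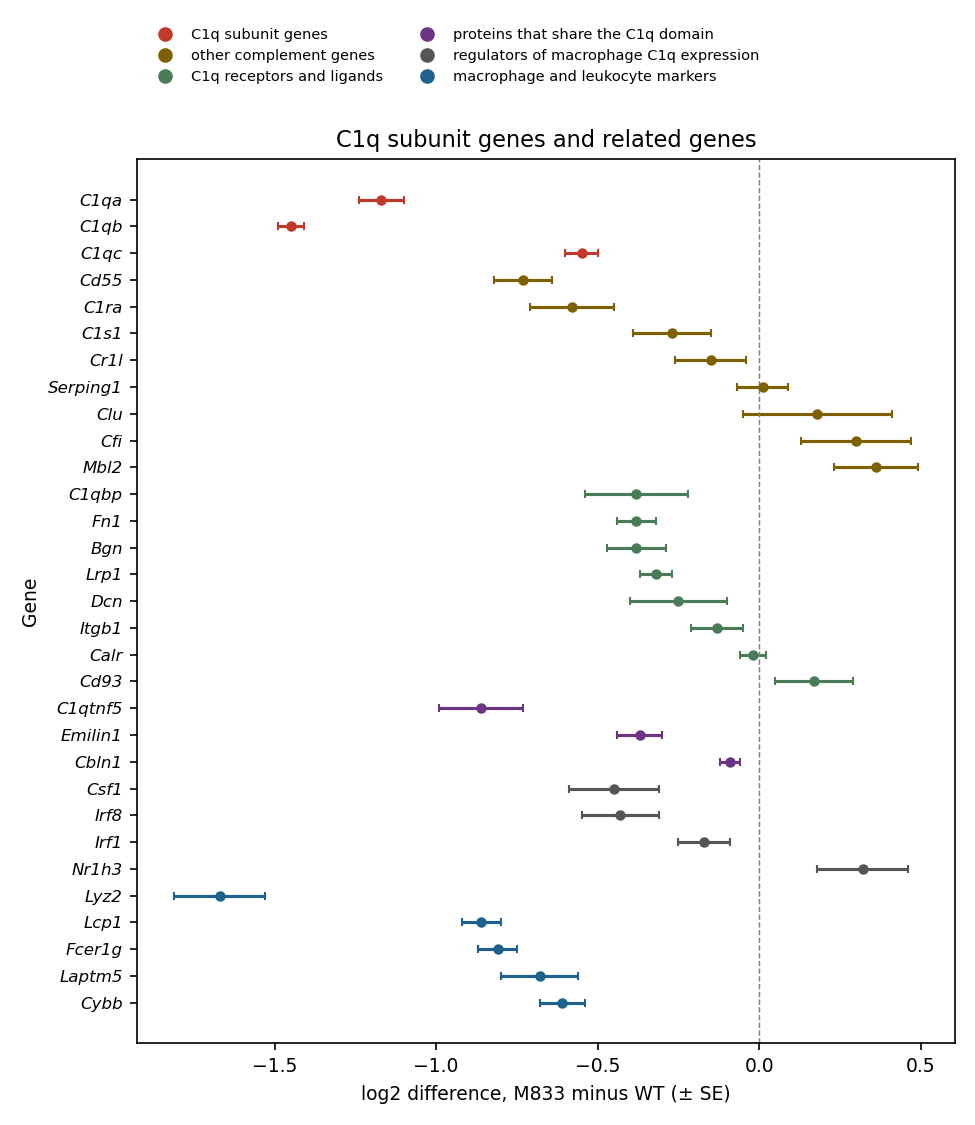
The log2 difference of M833 minus WT (horizontal axis, points, bars ± SE) is shown for the C1q subunit genes at the top and for measured members of 5 related lists below. C1qb at -1.45 and C1qa at -1.17 stand left of all other genes shown except Lyz2 at -1.67, and the other complement genes lie on both sides of 0.

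The nearest measured genes on either side of the C1q genes showed no shared decrease. Of 10 such genes, 5 on each side in the gene table, 2 were lower, 2 were higher and 6 did not pass the test, with values from -0.57 to 0.43, against 15.9% of all features lower and 10.0% higher. Kdm1a and Wnt4, the closest measured gene on either side, lay 277 and 379 kb from the C1q genes, which span 18.7 kb. The farthest of the 10, Rap1gap, lay 766 kb away, so that the immediate surroundings of the C1q genes were not examined. Kdm1a and Wnt4 differed by -0.05 and 0.31 (adjusted p = 0.321 and 0.293, limma). The helix-loop-helix factor gene Id3 rose by 0.43 ± 0.06 and the RNA-binding protein gene Hnrnpr by 0.31 ± 0.06, while Tcea3 fell by 0.57 ± 0.19 and the small GTPase gene Cdc42 by 0.09 ± 0.03 (SE; adjusted p = 0.00017, 0.0017, 0.0362 and 0.033). Tcea3 lost its call without any one of WT replicates 1, 2, 5 and 6 or M833 replicates 1, 2, 4, 6 and 8 (-0.57 to -0.49), and was at -0.10 without those 4 WT arrays. Both lower calls were lost with sets as a random block (Tcea3 adjusted p = 0.115, Cdc42 adjusted p = 0.211, limma). Cdc42 lost its call without any one of WT replicates 3, 7 and 8 or M833 replicates 1, 3, 6 and 8 (-0.10 to -0.08) and after scaling between arrays (-0.02). Hnrnpr was not called with Cy5 arrays only (0.25) or without M833 replicates 3, 4, 7 and 8 (0.24).

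**Figure D4:**
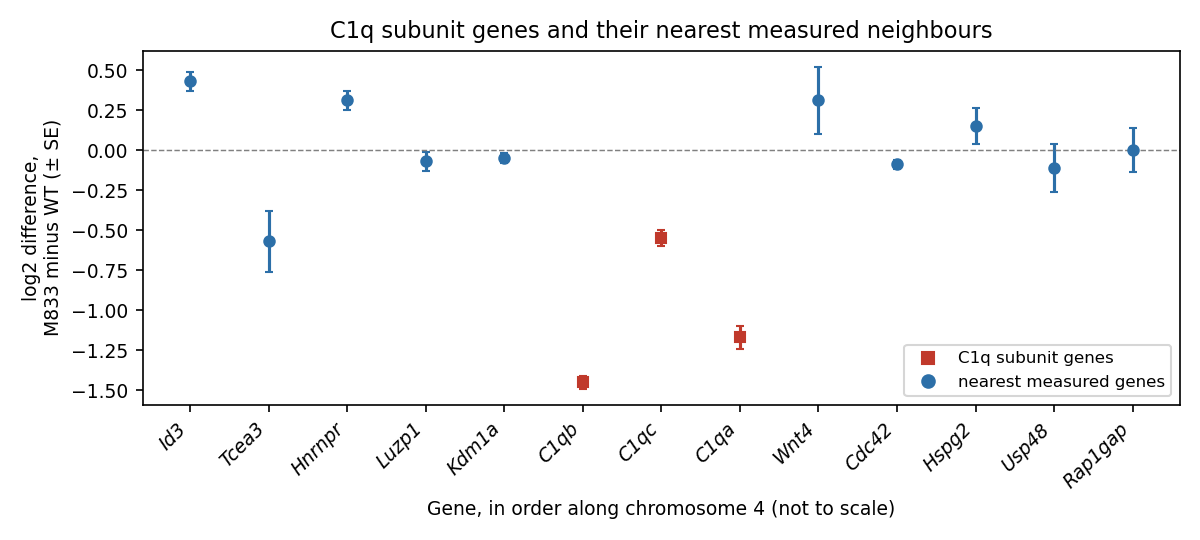
The log2 difference of M833 minus WT (vertical axis, ± SE) is shown for the 3 C1q subunit genes (red squares) and the 5 nearest measured genes on each side (blue circles), in their order on chromosome 4 and not to scale. The neighbours lie between -0.57 and 0.43 on both sides of 0. The closest measured genes, Kdm1a at -0.05 and Wnt4 at 0.31, are 277 and 379 kb from the C1q genes.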

How the data were processed

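Total RNA from Trizol extraction was copied with dye-labelled nucleotides, per the labels' protocols. The authors deposited normalised log2 ratios for 16 arrays. Limma was used, per the submitters' processing notes, with no version. The steps of background correction, normalisation and filtering are left unstated by the labels. The values, at most 15.35, fit a log2 scale. All array pairs correlated positively (r from 0.591), so that dye-swapped arrays had been turned already, and no sign was changed here. No filter on dim probes was possible, since channel intensities were not used here.

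Of 15247 probes 9600 had 1 gene symbol, 214 several and 5433 none. The platform annotation is old, and 9492 probes matched a current gene table (RefSeq, GRCm38.p6) by gene number. Probes of one gene were averaged. The test was that of limma 3.58.1 (lmFit, eBayes, R 4.3.3), with terms for cell type and dye orientation over the 16 arrays, with Benjamini-Hochberg adjustment over 12761 features and calls at 0.05. The fit was run on simulated data with noise independent between arrays, so that this run does not cover the correlation within sets of arrays. Alternatives were centring, scaling between arrays, no dye term, single probes, array weights, robust moderation, one dye orientation, leaving out single arrays, sets of 4 or M833 replicates 6, 7 and 8, and sets as a random block or as 1 replicate.

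Arrays were grouped by their channel labels, and replicates numbered in series order. Members and gene lists were chosen with earlier results of these data known. Named genes were the members, measured members of the lists, the 8 genes most similar by correlation and the 5 nearest measured genes on each side. The number of arrays limits the precision.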

Additional observations from a re-analysis of the deposited data

How the results depend on the processing

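No paired analysis was possible because the labels give the arrays no replicate numbers. In all 31 alternatives the 3 members were lower in M833. In refits with unchanged log ratios this direction was fixed beforehand, since the members were chosen as lower and the cell types did not overlap. Only the size of the differences could vary there. The differences ran from -1.43 to -1.05 for C1qa, from -1.56 to -1.41 for C1qb and from -0.68 to -0.43 for C1qc. With any one array left out these differences ran from -1.21 to -1.14, from -1.48 to -1.43 and from -0.58 to -0.53. Shifts beyond the spread between arrays were those of C1qa (-1.43) and C1qb (-1.56) after scaling between arrays and of C1qc with Cy5 (-0.68) or Cy3 (-0.43) arrays only. The 3301 features called became 2000 without a dye term, 835 with Cy5 and 1100 with Cy3 arrays only, which hold fewer arrays, 1685 without M833 replicates 1, 2, 5 and 6, 1858 without M833 replicates 3, 4, 7 and 8, and 1465 with sets of 4 arrays as a random block. When each set was averaged into 1 replicate (2 against 2), limma called 0 features, 0 other complement genes and 0 macrophage and leukocyte markers, whereas 1675 features, 2 of these complement genes and 5 of these markers had an unadjusted p under 0.05. No gene named in the report was called in that setting. The count of other complement genes called, 2, was 4 after scaling between arrays, 4 without WT replicates 3, 4, 7 and 8, and 1 with Cy5 arrays only or without M833 replicates 1, 2, 5 and 6. In each other alternative at least 4 of the 5 macrophage and leukocyte markers were called. The dye interaction called 0 features in each of the 18 alternatives run for it, with 266 to 642 features at an unadjusted p under 0.05.

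Among the 53 other genes recomputed under the alternatives, the sign changes were those of genes that had not passed the test. After scaling between arrays Cfi was at -0.40, Serping1 at -0.52, Clu at -0.14, Cd93 at -0.10, Calr at 0.05, Itgb1 at 0.04, Krt8 at -0.34 and Krt19 at -0.10. With Cy3 arrays only Cfi was at -0.02 and Serping1 at -0.03, and Serping1 was also at -0.03 without M833 replicates 3, 4, 7 and 8 and, as its lowest value, with one array left out. Without WT replicates 1, 2, 5 and 6 Cr1l was at 0.05 and Clu at -0.10, while Dcn (-0.62) and Itgb1 (-0.33) were called lower, and without WT replicates 3, 4, 7 and 8 Calr was at 0.04, Itgb1 at 0.06 and Dcn at 0.12, while Cr1l was called lower (-0.34). Calr was at 0.00 with centring, at 0.01 with Cy5 arrays only, from -0.04 to 0.01 with one array left out, and at 0.02 without M833 replicates 6, 7 and 8. The cause of these changes was not tested. Signal over background could not be judged from ratios.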
